A study of Mus musculus with 4 samples.

Results

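The mRNA of 8 genes was described in sorted lung myeloid cells: the CC chemokines Ccl2, Ccl6, Ccl7, Ccl8, Ccl9, Ccl12 and Ccl24, and the chemokine receptor gene Ccr2. They were taken from the count table by symbol, 8 of its 54429 symbols. The 4 libraries, 1 per group, hold CD11b+Ly6g+ cells, the surface phenotype of granulocytic myeloid-derived suppressor cells (MDSCs), each pooled after flow cytometry from the lungs of 10 to 12 C57BL/6 mice aged 6 to 8 weeks. All mice, the untreated control group (Ctrl) included, carried the pre-metastatic niche (PMN) model. They received medium conditioned by B16F10 mouse melanoma cells into the peritoneum, 300 μl per mouse, for 10 days and an intravenous injection of 100000 B16F10 cells on day 7. Free thymopentin (TP5), an immunomodulatory pentapeptide, FR17 or sFD17 was given at 40 μM/kg per day from day 3, and lungs were taken on day 10. FR17 is thymopentin joined through a linker cut by the protease MMP2 to a self-assembling peptide backbone, and sFD17 is the same molecule with a scrambled pentapeptide in place of thymopentin. No library of mice without the PMN model was analysed here, and a difference between 2 libraries had no replicate check.

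CC chemokines are small secreted proteins that steer leukocytes through G protein-coupled receptors. Ccl2, Ccl7 and Ccl12 encode the mouse monocyte chemoattractant proteins MCP-1, MCP-3 and MCP-5, which act on CCR2, the receptor that draws inflammatory monocytes from the bone marrow into the blood and inflamed tissue. Ccl8 encodes mouse MCP-2, which acts on CCR8, Ccl6 and Ccl9 encode myeloid chemokines that act on CCR1, and Ccl24 encodes eotaxin-2, which attracts eosinophils through CCR3. The name monocyte chemoattractant protein therefore covers 4 of the 8 genes, and mRNA counts do not measure chemotaxis.

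Of the 7 ligand genes, 6 lie on chromosome 11 in 2 groups (GRCm38). The MCP genes are all on the plus strand: Ccl2 at chr11:82035571-82037453, Ccl7 at chr11:82045712-82047525, Ccl12 at chr11:82101845-82103400 and Ccl8 at chr11:82115185-82116799. Ccl9 (chr11:83572919-83578636) and Ccl6 (chr11:83587882-83593087) are neighbours on the minus strand, Ccl24 is at chr5:135569937-135573049 on the minus strand, and Ccr2 is at chr9:124101950-124113557 on the plus strand. The 250 bases before the RefSeq start are shown for 1 pair from each group, because the 4 genes of the first group fell at least 2-fold in the sFD17 library against Ctrl, as did 6.47% of all genes tested, and the 2 of the second did not. Of the 8 genes, 5 were in the RefSeq promoter table (GRCm38.p6). Each line is 5′ to 3′ on the gene's own strand, and capitals mark the motif matches.
Ccl12, chr11:82101595-82101844, plus strand: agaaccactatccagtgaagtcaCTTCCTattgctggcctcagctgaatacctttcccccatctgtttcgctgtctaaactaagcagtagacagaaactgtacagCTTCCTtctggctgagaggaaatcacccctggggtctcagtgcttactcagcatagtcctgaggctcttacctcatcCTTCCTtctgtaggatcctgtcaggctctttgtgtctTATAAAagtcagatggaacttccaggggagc
Ccl8, chr11:82114935-82115184, plus strand: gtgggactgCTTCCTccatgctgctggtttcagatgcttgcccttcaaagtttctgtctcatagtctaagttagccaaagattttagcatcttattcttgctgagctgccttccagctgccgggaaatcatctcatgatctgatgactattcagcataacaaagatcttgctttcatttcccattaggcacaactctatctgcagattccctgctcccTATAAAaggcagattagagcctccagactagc
Ccl9, chr11:83578637-83578886, minus strand: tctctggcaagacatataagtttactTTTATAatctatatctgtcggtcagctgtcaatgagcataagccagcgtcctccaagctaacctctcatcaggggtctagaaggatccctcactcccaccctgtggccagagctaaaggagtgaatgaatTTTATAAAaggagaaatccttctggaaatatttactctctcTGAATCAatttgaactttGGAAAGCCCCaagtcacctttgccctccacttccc
Ccl6, chr11:83593088-83593337, minus strand: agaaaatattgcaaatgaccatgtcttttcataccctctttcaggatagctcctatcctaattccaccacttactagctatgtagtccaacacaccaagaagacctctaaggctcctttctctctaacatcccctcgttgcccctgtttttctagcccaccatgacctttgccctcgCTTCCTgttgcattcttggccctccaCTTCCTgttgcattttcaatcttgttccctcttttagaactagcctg

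Both MCP windows held the TATA motif TATAAA just before the start, from -32 to -27 in Ccl8 and from -31 to -26 in Ccl12. In the Ccl9 window the letters stood at -224, -94 and -92 on either strand, the last 2 of which overlap, and in the Ccl6 window they were not found. Across the 32851 RefSeq windows of this length, 12.4% held TATAAA on either strand. The PU.1-type motif AGGAAG, present in 29.5% of windows, was found once in Ccl8, 3 times in Ccl12 and 2 times in Ccl6, all as CTTCCT. Ccl9 alone of the 4 held TGANTCA, an AP-1-type motif present in 6.75% of windows, and a match to the NF-kB consensus, present in 3.90%. TTCNNNGAA (7.02% of windows) and the interferon regulatory factor (IRF) motif (2.98%) were found in none of the 4. The longest run of letters shared by Ccl6 and Ccl9 was 13 bases, and that shared by Ccl8 and Ccl12 was 8 bases. Across the 2 groups the longest runs were of like length, 9 bases for Ccl8 and Ccl9 and for Ccl9 and Ccl12, 8 for Ccl6 and Ccl12 and 7 for Ccl6 and Ccl8. These matches describe the letters only.

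The libraries held from 15543071 to 19638228 counts, and all 8 genes reached 10 counts in some library, the filter that 16367 genes passed. Counts were scaled by the trimmed mean of M-values (TMM), with factors of 0.849 for sFD17, 0.986 for Ctrl, 1.02 for TP5 and 1.17 for FR17, so that sFD17 and FR17 stood on either side of the other two. Levels of 1 gene are given as scaled CPM, counts relative to the scaled library total, and levels between genes as scaled RPKM, which also divide by the length of the gene in kilobases. With 1 library per group no test between groups could be made. A gene was called changed at a difference of at least 2-fold in scaled log2 CPM. Each log2 fold change of the 8 genes is followed, where first given, by the 95% exact interval of its pair of counts. The interval covers counting error only.

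The labelled cell type was checked first. Ly6g, which encodes the sorted antigen and is named here after its values were seen, was at 73.1 scaled CPM in Ctrl, 97.8 in TP5, 111.2 in sFD17 and 90.7 in FR17, while S100a9, an abundant neutrophil gene, was between 9051.6 and 13024.4 scaled CPM. Macrophage genes were present as well. The summed level of 17 markers of interstitial and tissue-resident macrophages was 8197.3 scaled CPM in Ctrl, 5082.7 in TP5, 2959.9 in sFD17 and 9649.2 in FR17, with Apoe the most abundant. The 13 alveolar macrophage markers summed to 3432.7, 3296.5, 1229.2 and 4947.5, with Chil3 the most abundant. In bulk libraries, fewer cells of a type and less RNA per cell cannot be told apart.

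The ligands covered a wide range of levels. In Ctrl, Ccl6 stood at 905.3 scaled RPKM, rank 50 of the 16367 genes tested, far above Ccl8 at 180.6 (rank 299) and Ccl9 at 78.2 (rank 674). Ccl7 and Ccl12 were level at 54.5, Ccl2 followed at 47.6, Ccr2 at 20.6 and Ccl24 at 14.6. Counted within the Ctrl library, the per-kilobase ratio of Ccl12 to Ccl2 was 1.14, with an interval of 1.02 to 1.28, and that of Ccl7 to Ccl2 was 1.15 (1.04 to 1.26), so the 3 CCR2 ligands were nearly equal there. The order below Ccl6 differed in the other libraries: Ccl9 at 84.3 scaled RPKM stood above Ccl8 at 55.8 in TP5, and at 49.2 above 35.0 in sFD17, while in FR17 Ccl7 at 88.3 stood above Ccl9 at 85.0.

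The genes for the CCR2 ligands followed 1 order, with FR17 highest, then Ctrl, TP5 and sFD17. Ccl2 had 915 counts in Ctrl, 601 in TP5, 238 in sFD17 and 1620 in FR17, or 54.2, 34.3, 18.0 and 70.6 scaled CPM. Ccl7 had 738, 400, 122 and 1623 counts, or 43.7, 22.8, 9.24 and 70.7 scaled CPM, the widest span of the 8 genes with a highest level 7.65 times the lowest. Ccl12 had 494, 303, 98 and 957 counts, or 29.2, 17.3, 7.43 and 41.7 scaled CPM. In all 3 genes sFD17 was the low library and FR17 lay above Ctrl by less than 2-fold.

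The same order held for Ccl8, which had 1559 counts in Ctrl, 500 in TP5, 236 in sFD17 and 2698 in FR17, or 92.3, 28.5, 17.9 and 117.5 scaled CPM. TP5 and, further down, sFD17 lay below Ctrl and FR17. Ccl24 had 320, 202, 73 and 432 counts, or 18.9, 11.5, 5.53 and 18.8 scaled CPM, so that Ctrl and FR17 were level and sFD17 was again lowest.

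The CCR1 ligand genes moved within a narrower range than the other ligand genes. Ccl6 had 27448 counts in Ctrl, 25492 in TP5, 16013 in sFD17 and 32543 in FR17, or 1625.0, 1453.3, 1213.3 and 1417.7 scaled CPM, a highest level 1.34 times the lowest. Ccl9 had 4022, 4501, 1976 and 5943 counts, or 238.1, 256.6, 149.7 and 258.9 scaled CPM, a highest level 1.73 times the lowest. In Ccl9 sFD17 lay below the other 3 libraries, which were close together. Ccr2, the receptor, had a pattern of its own, with 2357, 3955, 1522 and 3366 counts, or 139.5, 225.5, 115.3 and 146.6 scaled CPM. TP5 was its high library, Ctrl and FR17 lay close together, and sFD17 was lowest.

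**Figure D1:**
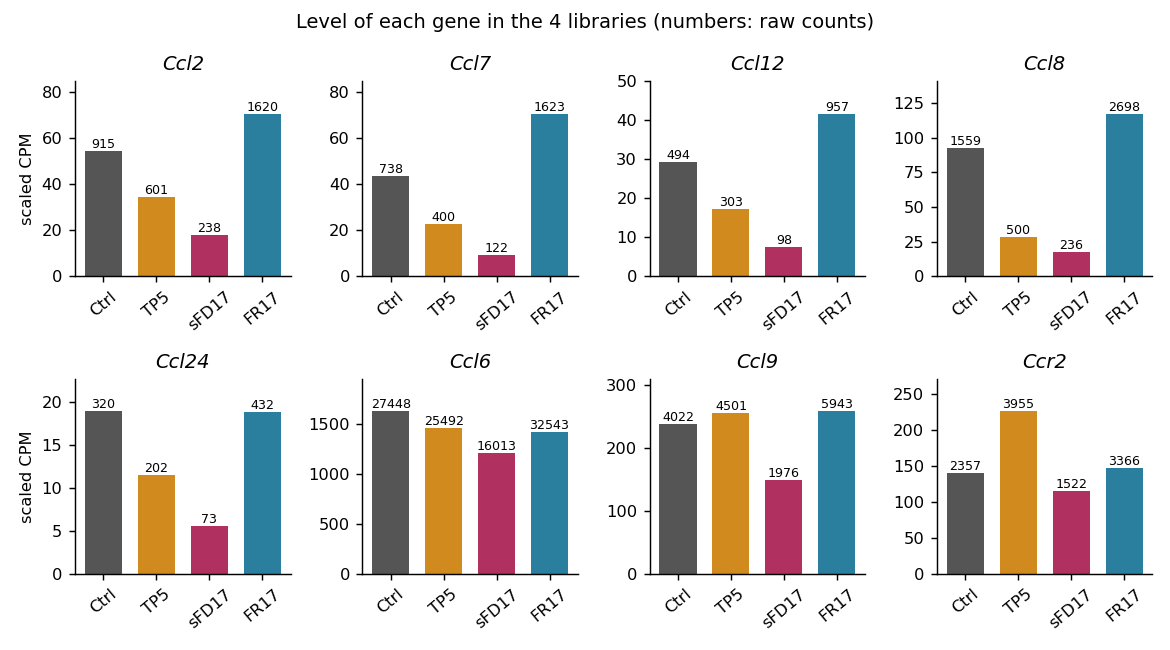
Each bar is the TMM-scaled CPM of a gene in 1 library (1 library per group, no error bar), with the raw count above it and a separate vertical axis, starting at 0, for each gene. sFD17 is the lowest bar for all 8 genes, FR17 is the highest for Ccl2, Ccl7, Ccl12, Ccl8 and, by a small margin over TP5, Ccl9, and TP5 is the highest for Ccr2.

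The library of mice given free thymopentin was set against that of untreated mice, TP5 against Ctrl. Of the 8 genes, 1 fell and 0 rose by at least 2-fold, where 4.99% of all genes tested were that much lower and 3.19% that much higher. Ccl8 fell to 0.309 of its Ctrl level, a log2 fold change of -1.69 (-1.84 to -1.55). Ccl7 was just inside 2-fold at -0.93 (-1.12 to -0.76), and Ccl12 at -0.76 (-0.97 to -0.55), Ccl24 at -0.71 (-0.98 to -0.46) and Ccl2 at -0.66 (-0.81 to -0.51) also lay below Ctrl by more than counting error. Ccl6 was at -0.16 (-0.19 to -0.14) and Ccl9 at 0.11 (0.05 to 0.17), while Ccr2 stood above Ctrl at 0.69 (0.62 to 0.77). The median of the 8 genes was -0.69, beside 0.00 over all genes tested.

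In sFD17 against Ctrl, 5 of the 8 genes fell by at least 2-fold and 0 rose, where 6.47% of all genes tested were that much lower and 5.32% that much higher. These were Ccl8 with a log2 fold change of -2.36 (-2.57 to -2.17), Ccl7 with -2.23 (-2.53 to -1.96), Ccl12 with -1.96 (-2.31 to -1.66), Ccl24 with -1.76 (-2.16 to -1.41) and Ccl2 with -1.58 (-1.80 to -1.38). All 5 lay below -1.14, the 5th percentile of all genes in that comparison. The other 3 did not reach 2-fold, with Ccl9 at -0.67 (-0.75 to -0.59), Ccl6 at -0.42 (-0.45 to -0.39) and Ccr2 at -0.27 (-0.37 to -0.18). The median of the 8 was -1.67, beside -0.03 over all genes tested.

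In FR17 against Ctrl, 0 of the 8 genes reached 2-fold in either direction, where 3.57% of all genes tested were at least 2-fold lower and 3.91% at least 2-fold higher. Ccl7 was at 0.69 (0.57 to 0.82), Ccl12 at 0.51 (0.35 to 0.67), Ccl2 at 0.38 (0.26 to 0.50) and Ccl8 at 0.35 (0.26 to 0.44), each above Ctrl by more than counting error. Ccl9 was at 0.12 (0.06 to 0.18) and Ccr2 at 0.07 (0.00 to 0.15), Ccl24 at -0.01 (-0.22 to 0.20) and Ccl6 at -0.20 (-0.22 to -0.17). The sign of Ccl24 and of Ccl6 turned with the scaling. The median of the 8 was 0.23, beside 0.02 over all genes tested. The 3 comparisons share the Ctrl library, so a chance high or low count in Ctrl enters all of them.

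**Figure D2:**
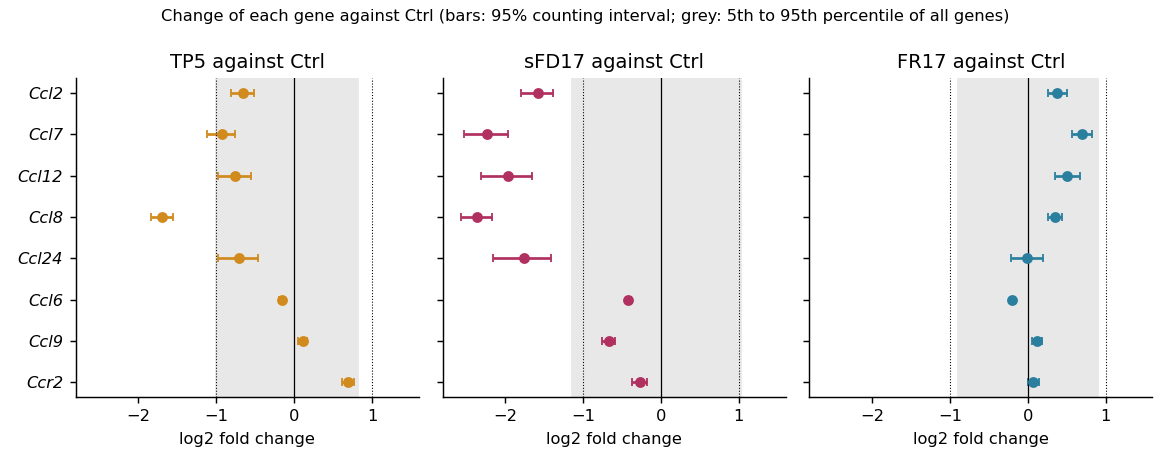
Points are log2 fold changes against Ctrl on the TMM scale, bars the 95% exact counting intervals, dotted lines the 2-fold limits, and the grey band the 5th to 95th percentile of all 16367 genes tested. Ccl8 alone lies left of the 2-fold line in TP5, 5 genes lie left of it in sFD17, and none lies outside the lines in FR17.

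The 3 peptides were given at 1 dose and over the same days, so their libraries could be set against each other in 3 pairs, without a test. FR17 and sFD17 differ in the order of residues in the carried pentapeptide. In FR17 against sFD17, 5 of the 8 genes were at least 2-fold higher and 0 lower, where 11.3% of all genes tested were that much higher and 10.8% that much lower. The log2 difference was 2.92 (2.67 to 3.21) for Ccl7, 2.71 (2.52 to 2.91) for Ccl8, 2.47 (2.19 to 2.80) for Ccl12, 1.96 (1.77 to 2.17) for Ccl2 and 1.75 (1.41 to 2.14) for Ccl24. Ccl9 at 0.79 (0.72 to 0.86), Ccr2 at 0.35 (0.26 to 0.43) and Ccl6 at 0.22 (0.20 to 0.25) stayed within 2-fold. The median of the 8 was 1.85, beside 0.07 over all genes tested. With library size as the only scaling, Ccl9 passed 2-fold at 1.25, and the median of all genes was then 0.52.

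FR17 and TP5 differ by the linker and backbone that FR17 adds to thymopentin. In FR17 against TP5, 4 genes were at least 2-fold higher and 0 lower, where 7.04% of all genes tested were that much higher and 2.88% that much lower. Ccl8 differed by 2.04 (1.91 to 2.18), Ccl7 by 1.63 (1.47 to 1.79), Ccl12 by 1.27 (1.08 to 1.46) and Ccl2, close to the limit, by 1.04 (0.91 to 1.18). Ccl24 was at 0.70 (0.46 to 0.96), Ccl9 at 0.01 (-0.04 to 0.07), Ccl6 at -0.04 (-0.06 to -0.01) and Ccr2 at -0.62 (-0.69 to -0.55). The median of the 8 was 0.87, beside -0.02.

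In sFD17 against TP5, 3 genes were at least 2-fold lower and 0 higher, where 5.64% of all genes tested were that much lower and 6.74% that much higher. These were Ccl7 at -1.29 (-1.61 to -1.01), Ccl12 at -1.21 (-1.56 to -0.88) and Ccl24 at -1.04 (-1.46 to -0.67), and the intervals of the last 2 cross the 2-fold limit. Ccr2 at -0.97 (-1.05 to -0.88) and Ccl2 at -0.92 (-1.15 to -0.71) were just inside it. They were followed by Ccl9 at -0.78 (-0.85 to -0.70), Ccl8 at -0.67 (-0.90 to -0.45) and Ccl6 at -0.26 (-0.29 to -0.23). All 8 were lower in sFD17, with a median of -0.94 beside -0.04. With library size as the only scaling, 6 of the 8 passed 2-fold here, as did 14.4% of all genes in either direction. The median of all genes was then -0.30.

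Ratios between genes inside a library need no scaling between libraries. Per kilobase, Ccl8 stood at 20.0% of Ccl6 in Ctrl, 6.89% in TP5, 5.18% in sFD17 and 29.1% in FR17. Ccl7 stood at 6.03%, 3.52%, 1.71% and 11.2% of Ccl6, so both MCP genes differed against the CCR1 ligand gene between libraries, whatever the scaling. Ccl9 against Ccl6 varied less, at 8.64%, 10.4%, 7.27% and 10.8%.

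The CCR2 ligands also changed against each other and against their receptor. Per kilobase, the ratio of Ccl7 to Ccl2 was 1.15 in Ctrl, 0.946 (0.831 to 1.07) in TP5, 0.728 (0.581 to 0.910) in sFD17 and 1.42 (1.33 to 1.53) in FR17. The intervals of sFD17 and FR17 do not overlap, so Ccl7 differed more between these libraries than Ccl2 did. Ccl2 to Ccr2 was 2.31 (2.13 to 2.49) in Ctrl and 2.86 (2.69 to 3.03) in FR17, but 0.903 (0.827 to 0.984) in TP5 and 0.929 (0.807 to 1.07) in sFD17. The ratio was alike in TP5 and sFD17, although Ccr2 was highest in TP5 and lowest in sFD17. Ccl8 to Ccl2 was 3.79 (3.49 to 4.12) in Ctrl and 3.71 (3.49 to 3.95) in FR17, against 1.85 (1.64 to 2.09) in TP5 and 2.21 (1.84 to 2.66) in sFD17.

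Of all counts per kilobase on the 7 ligand genes, Ccl6 took 67.8% in Ctrl, 77.2% in TP5, 83.9% in sFD17 and 58.6% in FR17. Ccl8 took 13.5%, 5.32%, 4.34% and 17.1%. In FR17 Ccl7 took 6.55%, Ccl12 5.76% and Ccl2 4.60%, against 1.43%, 1.72% and 1.97% in sFD17. Ccl9 stayed between 5.86% and 8.03%, and Ccl24 between 0.530% and 1.10%.

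**Figure D3:**
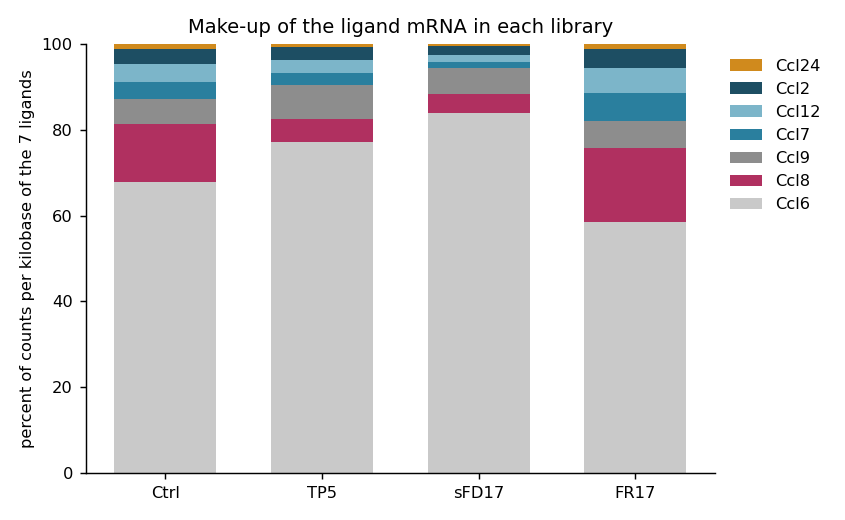
Each bar divides the counts per kilobase of the 7 ligand genes in 1 library into percentages, from 0 to 100. Ccl6 fills most of every bar, from 58.6% in FR17 to 83.9% in sFD17, and Ccl8 ranges from 4.34% to 17.1%.

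Position on the chromosome was set beside the changes, using the other CC chemokine genes of chromosome 11 with values. Ccl2 and Ccl7 are 8259 bases apart and Ccl12 and Ccl8 are 11785 bases apart. Ccl11, between these pairs, had only 10, 8, 11 and 23 counts in Ctrl, TP5, sFD17 and FR17, and Ccl1, on the far side of Ccl8, had 0, 3, 0 and 8, at or near the floor of 3 counts used for a gene not detected. A gap of 1220088 bases separates Ccl1 from the second group. There Ccl5 was at a log2 fold change against Ctrl of -0.58 in TP5, 0.87 in sFD17 and 1.34 in FR17. Ccl3 was at 0.17, 0.57 and -0.50, and Ccl4 at -0.17, 0.67 and -0.30. In sFD17 these 3 genes lay above Ctrl while Ccl9 and Ccl6, the latter 9246 bases beyond Ccl9, lay below it.

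**Figure D4:**
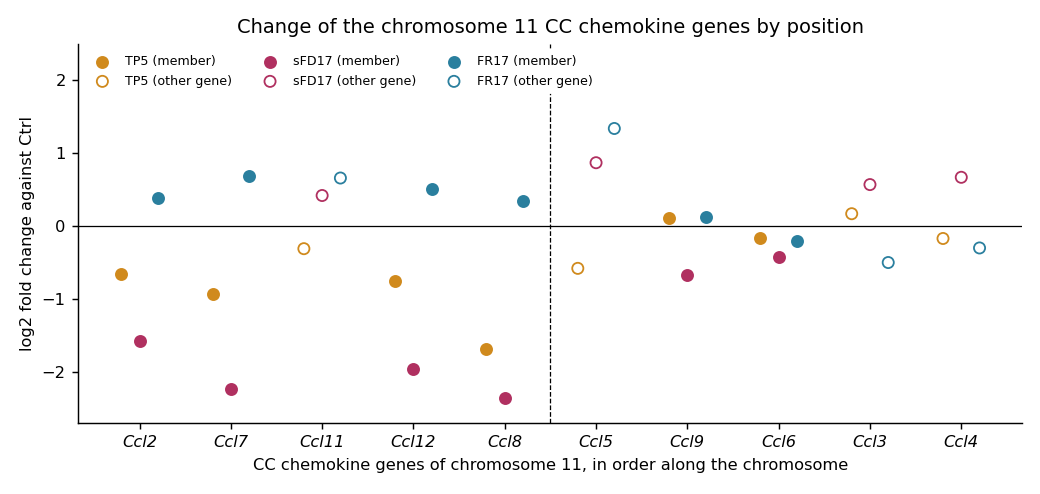
Points are log2 fold changes against Ctrl of the CC chemokine genes of chromosome 11 that passed the filter, in their order along the chromosome (not to distance), with filled points for the 6 described ligands and open points for other genes. The dashed line marks the gap of 1220088 bases, and only left of it do sFD17 points lie below the 2-fold limit of -1.

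Other genes of the pathway were counted from lists by function. Of 14 other CC chemokine genes 9 were tested, of which 1 rose and 1 fell by at least 2-fold in TP5, 0 and 1 in sFD17, and 1 and 0 in FR17, with median log2 fold changes of -0.17, 0.42 and 0.47. Over all genes tested, 3.19% rose and 4.99% fell in TP5, 5.32% and 6.47% in sFD17, and 3.91% and 3.57% in FR17, with medians of 0.00, -0.03 and 0.02. Ccl17, a CCR4 ligand, rose from 353 to 839 counts in TP5, a log2 fold change of 1.19 (1.01 to 1.38). Ccl5 (RANTES), a T cell and monocyte attractant, rose from 387 to 1339 counts in FR17, a change of 1.34 (1.18 to 1.52).

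Of 11 other CC chemokine receptor genes, all tested, 4 rose and 1 fell in TP5, 2 and 0 in sFD17, and 3 and 0 in FR17, with medians of 0.38, 0.52 and 0.65, to be read against the same shares and medians of all genes. Ccr3, the receptor for the Ccl24 product, rose in TP5 from 57 to 134 counts, by 1.15 (0.72 to 1.65). Ccr8, the receptor for the Ccl8 product, rose in FR17 from 15 to 78 counts, by 1.81 (1.13 to 2.84), and Ccr4 rose there from 13 to 57, by 1.56 (0.80 to 2.68). Both were also at least 2-fold above Ctrl, with fewer counts, in TP5, at 1.03 for Ccr8 and 1.13 for Ccr4, and Ccr8 in sFD17, at 1.06. Ccr9, a gut-homing receptor, had 22 counts in Ctrl and rose to 55 with TP5 and 83 with FR17, by 1.20 (0.53 to 2.05) and 1.40 (0.78 to 2.22). Several of these rest on few counts, and their intervals are wide.

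Ccr1, which encodes the receptor for the Ccl6 and Ccl9 products and is named after its values were seen, had 20410 counts in Ctrl, 17096 in TP5, 18023 in sFD17 and 15879 in FR17. Its log2 fold changes of -0.31, 0.18 and -0.80 did not reach 2-fold. Of 3 atypical receptor genes 1 was tested and 0 passed 2-fold against Ctrl, with Ackr2 at -0.81, -0.14 and 0.37. Among 20 genes of signalling below these receptors 0 passed 2-fold in any peptide library against Ctrl. Over all genes tested, 8.17%, 11.8% and 7.48% did so in either direction in TP5, sFD17 and FR17. Among genes with at least 10 counts in every library the shares were 3.74%, 6.79% and 3.32%. Whether a count of 0 differs from these shares was not tested. The medians of the 20 genes were 0.00, 0.16 and -0.23.

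Cell type markers moved beside the ligand genes. All 17 interstitial and tissue-resident macrophage markers lay below Ctrl in TP5 and all 17 in sFD17, and 16 lay above it in FR17, none of the markers being at 0. Their summed level was 0.620, 0.361 and 1.18 times that of Ctrl. For comparison, Ccl2 was at 0.633, 0.333 and 1.30 times its Ctrl level, Ccl7 at 0.522, 0.212 and 1.62, Ccl12 at 0.591, 0.254 and 1.43, and Ccl8 at 0.309, 0.194 and 1.27. The part of these markers in the ligand changes was not tested. F13a1 stands on both this list and the monocyte list, and Siglecf on both the alveolar macrophage and the eosinophil list.

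The 13 alveolar macrophage markers summed to 0.960, 0.358 and 1.44 times Ctrl, with 11 lower in TP5, 13 lower in sFD17 and 13 higher in FR17. Chil3 made up 79.2% of this sum in Ctrl, and the median log2 fold changes of the list were -0.63, -2.46 and 0.53. The 16 classical monocyte markers, of which Cd14 was the most abundant, summed to 0.953, 1.45 and 0.804 times Ctrl. Of these, 10 were higher and 6 lower in TP5, 10 and 6 in sFD17, and 9 and 7 in FR17, with median log2 fold changes of 0.10, 0.65 and 0.03. Ly6c2 and F13a1, both named after their values were seen, moved apart in sFD17, at 1.42 and -1.91. Ccr2, which inflammatory monocytes carry, was at log2 fold changes of 0.69, -0.27 and 0.07. The 18 neutrophil markers summed to 1.05, 1.32 and 0.846 times Ctrl, with 12, 17 and 8 of them above it and medians of 0.16, 0.45 and -0.05. The 8 eosinophil markers, of which Cd101 was the most abundant and Prg3 had no counts in Ctrl and TP5, summed to 0.968, 1.04 and 0.733 times Ctrl. Most single eosinophil markers lay above Ctrl, 6 of 8 in TP5, 5 in sFD17 and 7 in FR17. Cd101, which made up 248.4 of the 307.0 scaled CPM of the list in Ctrl, was at a log2 fold change of -0.66 in FR17.

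The remaining marker lists moved in other orders. Relative to Ctrl, in TP5, sFD17 and FR17, the dendritic cell list (most abundant Cd209a) was at 1.77, 1.09 and 1.33, mast cells and basophils (Kit) at 1.14, 1.57 and 1.93, NK cells (Gzma) at 0.624, 0.753 and 3.18, and T cells (Cd4) at 0.821, 0.651 and 1.76. B and plasma cells (Ighm) were at 1.33, 1.08 and 1.23, endothelial cells (Pecam1) at 0.764, 1.10 and 1.28, fibroblasts and smooth muscle (Col3a1) at 0.625, 0.925 and 1.03, and alveolar and airway epithelium (Scgb1a1) at 1.47, 2.00 and 1.18. The melanoma list (Mitf) was at 0.971, 0.662 and 0.888, with Tyr and Tyrp1 at 0 counts in all 4 libraries and Mlana, Dct and Sox10 at 0 in at least 1. Single genes made up large parts of these sums in Ctrl, from 28.3% for Col3a1 in the fibroblast list to 84.8% for Scgb1a1 in the epithelium list and 96.2% for Mitf in the melanoma list. In the same order of libraries, the median log2 fold change of the markers tested was 0.83, 0.27 and 0.45 for dendritic cells, 0.02, 0.28 and 1.09 for mast cells and basophils, -0.55, -0.54 and 1.59 for NK cells, and 0.18, -0.15 and 0.82 for T cells. It was 0.54, 0.21 and 0.45 for B and plasma cells, -0.93, 0.10 and 0.35 for endothelial cells, -0.74, -0.16 and 0.02 for fibroblasts and smooth muscle, 0.27, 0.27 and 0.14 for epithelium and 0.36, 0.04 and -0.12 for melanoma. The sum and the median thus lay on different sides of Ctrl for T cells and melanoma in TP5 and for melanoma in sFD17. The mast cell and basophil list was split in TP5, with 5 markers above and 5 below Ctrl. Ccl5, which NK and T cells express, was above Ctrl in FR17 and sFD17, and the part of the NK and T cell markers in it was not tested.

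**Figure D5:**
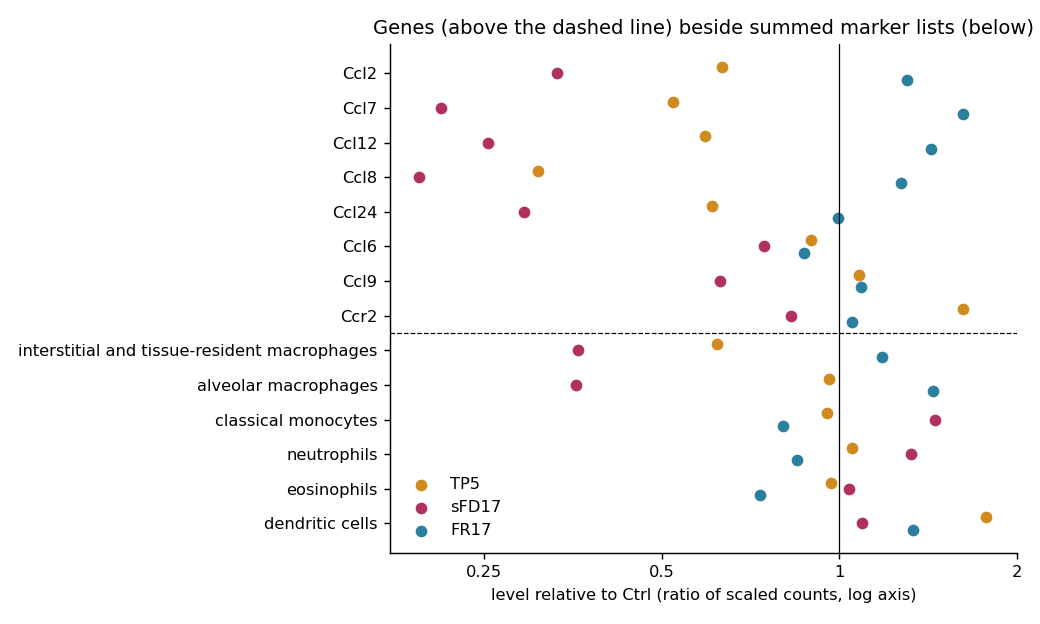
Points give the level in each peptide library relative to Ctrl, on a log axis, for the 8 genes above the dashed line and for the summed scaled CPM of 6 marker lists below it. sFD17 lies at 0.361 and 0.358 for the macrophage lists and between 0.194 and 0.333 for Ccl2, Ccl7, Ccl12, Ccl8 and Ccl24, whereas the neutrophil and monocyte lists lie at 1.32 and 1.45.

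The genes with the most similar profile over the 4 libraries were found by the root mean square difference of log2 CPM centred on each gene's mean, among protein-coding genes that reached 100 counts somewhere. For Ccl2 these were Fcgrt (0.0218), which encodes the neonatal Fc receptor, C1qb (0.0412), a complement C1q chain, and Chst7 (0.0599). For Ccl8 they were Folr2 (0.0838), a folate receptor of tissue-resident macrophages, Tnfrsf25 (0.103) and Pf4 (0.120), a CXC chemokine. For Ccl12 they were Tcim (0.0333), Acy1 (0.0748) and Stab1 (0.0774), a scavenger receptor, and for Ccl24 they were Slc38a6 (0.0467), Msr1 (0.0568), another scavenger receptor, and Crtap (0.0582). C1qb, Folr2, Pf4 and Stab1 are on the list of interstitial and tissue-resident macrophage markers.

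The 3 closest genes of each of the other 4 included no gene of the marker lists, but genes farther off were left out by that limit. Cd163, a resident macrophage marker named after its values were seen, was at log2 fold changes against Ctrl of -1.04, -2.31 and 0.37 in TP5, sFD17 and FR17. Those of Ccl7 were -0.93, -2.23 and 0.69. Ccl7 was closest to Sh3bgrl2 (0.0544), Kcnk5 (0.0897) and Gal (0.0943). Ccl6 was closest to Jade1 (0.00943), Cep78 (0.0112) and Nae1 (0.0139), and Ccl9 to Fgfr1 (0.0118), Mphosph10 (0.0174) and Slc33a1 (0.0216). Genes that change little all have small values by this measure. Ccr2 was closest to Lrrc40 (0.0339), Ccdc88a (0.0518) and Lag3 (0.0534).

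By the same measure, the closest pairs among the 8 genes were Ccl2 and Ccl24 (0.150), which lie on different chromosomes, Ccl7 and Ccl12 (0.172), and Ccl2 and Ccl12 (0.187). Ccl9 and Ccl6 were at 0.227 and Ccl9 and Ccr2 at 0.266, and the farthest pair was Ccl8 and Ccr2 at 1.20. The 4 points behind each value are 4 libraries, so likeness here is a description.

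Reads of these genes could be told from those of other genes nearly throughout. No stretch of 50 bases of the transcripts of Ccl2, Ccl6, Ccl7, Ccl8, Ccl12 or Ccl24 occurred in a transcript of another gene. For Ccl9 1.97% and for Ccr2 1.91% of stretches were shared.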

How the data were processed

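For each of the 4 libraries, 1 per group, the authors deposited unnormalized counts of reads on genes. RNA was extracted with TRIzol and libraries made with the NEBNext Ultra Directional kit. The submitters' processing notes name HISAT2 2.0.5, StringTie 1.3.3b, featureCounts 1.5.0-p3, edgeR 3.18.1 and GRCm38.p6, without their roles, and the strand setting of the counting is not given in the sources used here. Coordinates equal those of GENCODE M21 for 53368 of 54393 matched identifiers. Of 54532 rows, 100 symbols stood on more than 1 row, and the row with the most counts was kept.

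The tools were edgeR 4.0.16 and DESeq2 1.42.0 in R 4.3.3, and scipy 1.17.1, numpy 2.4.6, pandas 2.3.3 and matplotlib 3.10.9 in Python 3.11.15. The quasi-likelihood test cannot be fitted with 1 library per group, so log2 fold changes (TMM, prior count 2) were called at 2-fold, with 95% Clopper-Pearson intervals of the pair of counts. Reads are not independent molecules, and the intervals leave out differences between mice. Library totals were 15543071 counts (sFD17), 17132880 (Ctrl), 17165184 (TP5) and 19638228 (FR17), and with a floor of 3 counts a count of 0 allows from 0.131 to 0.227 scaled CPM.

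Named genes are the 8 described; in the pathway lists, those at least 2-fold changed against Ctrl where either library of the pair reached 50 counts, at most 4 per comparison; for each of the 8, the 3 most similar genes; the most abundant marker of a list; and markers at 0. The 8 genes and all lists (4 of pathway genes and 14 of markers) were chosen with earlier results of these data known. Of 192 listed symbols 1 was not matched. The alternatives were other scalings, filters, a prior count of 0.5, a 1.5-fold call, edgeR exact tests with dispersions taken over the 4 libraries or fixed, and DESeq2. The calculation was also run on simulated data, with known changes well above 2-fold in FR17 and less spread than the dispersion taken over these libraries. That run does not bear on calls near 2-fold.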

Additional observations from a re-analysis of the deposited data

How the results depend on the processing

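The number of the 8 genes called depended mainly on the rule for a call. In TP5 against Ctrl it was 1 at 2-fold, 6 at 1.5-fold (20.8% of all genes tested), 2 by edgeR's exact test at an unadjusted p under 0.05 with the trended dispersion (1.98%) or with a biological coefficient of variation (BCV) of 0.2 (5.40%), and 0 after Benjamini-Hochberg adjustment (0.0305%) or by DESeq2 (0.385%). In sFD17 against Ctrl it was 5, and 3 after adjustment (0.978% of all genes) or by DESeq2 (1.17%). In FR17 against Ctrl it was 0, and 1 at 1.5-fold (22.7%). In FR17 against TP5 it was 4, with 1 at a BCV of 0.4 (1.67% of all genes), 1 after adjustment (0.0916%) and 0 by DESeq2 (0.739%). In sFD17 against TP5 it was 3, with 6 by library size alone (14.4% of all genes), 7 at 1.5-fold (31.8%), 5 at a BCV of 0.2 (9.82%), and 0 at a BCV of 0.4 (1.89%), after adjustment (0.495%) or by DESeq2 (0.849%). In FR17 against sFD17 it was 5 (22.1% of all genes), 6 by library size alone (30.5%) and 6 at 1.5-fold (46.0%). It was 5 under the other scalings, filters and prior count, with 17.2% to 23.6% of all genes. The exact tests and DESeq2 compare 2 libraries with borrowed or assumed dispersions and are no replicate check of any of these counts. The dispersion, with a common BCV of 0.268, was taken over the 4 libraries as 1 group and so holds the treatment differences.

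Of 48 log2 fold changes (8 genes in 6 comparisons), 45 kept their sign under every scaling, filter and prior count tried. Of the 288 alternative values, 46 lay outside the counting interval of the reported value, so the intervals leave out the choice of processing. Ccl6 in FR17 against Ctrl ranged from -0.20 to 0.05, Ccl24 in FR17 against Ctrl from -0.02 to 0.23, and Ccl6 in FR17 against TP5 from -0.04 to 0.16. With library size alone the median of all genes in FR17 against sFD17 was 0.52, beside 0.07 as reported. It also moved the share of higher genes among all genes at 2-fold from 45.1% to 27.4% in sFD17 against Ctrl, from 52.2% to 77.5% in FR17 against Ctrl, from 51.1% to 84.3% in FR17 against sFD17, from 71.0% to 83.6% in FR17 against TP5 and from 54.4% to 30.1% in sFD17 against TP5. No paired analysis was possible because each group has 1 library, and for the same reason no library could be left out.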
